A study of Sus scrofa with 9 samples.

Results

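The genes described here encode the translation initiation factors, the translation elongation factors and the aminoacyl-tRNA synthetases (tRNA ligases) and were measured in germs of the additional molars of the Wuzhishan miniature pig. A gene was included when the symbol of its probe set began with EIF or EEF, or when it was the symbol of a tRNA ligase (1 letter followed by ARS, with or without a trailing 1 or 2, or EPRS), except for EIF1AX and EIF1AY, which were left out. This gave 59 genes of the 6765 genes with 1 symbol, 40 of them factors and 19 of them ligases. They were represented by 90 of the 10069 probe sets with 1 symbol, and where a gene had several, the brightest by mean log2 signal over the 9 arrays was used. EEF2, EEF1A2, EIF4EBP1 and the eIF2 kinases other than EIF2AK2 had no probe set with 1 symbol and are not analysed here.

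The molar germs were dissected with the attached dental lamina from mandibles at embryonic day 50 (E50), E60 and E70, and their RNA was read on 9 Affymetrix Porcine Genome Arrays, 3 for each stage. At E50 the first additional molar was at the cap stage. At E60 the first molar was at the bell stage and the one behind it was starting, and at E70 the first molar was at the late bell stage. Germs of a stage came from 1 litter and were pooled for extraction, and although the labels name the 3 arrays biological replicates, p-values measure only the spread between these arrays.

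Protein synthesis starts when eIF2 carries the initiator tRNA to the small ribosomal subunit, which eIF3 prepares, while the eIF4F complex (the cap-binding protein eIF4E, the scaffold eIF4G and the helicase eIF4A) brings in the mRNA. eIF2B recharges eIF2 with GTP, kinases that phosphorylate eIF2 stop this exchange, and eIF5B joins the large subunit. The eEF1 complex then delivers the aminoacyl-tRNAs, each charged with its amino acid by a tRNA ligase, and separate ligases of the mitochondria, with symbols that mostly end in 2, serve the organelle's own ribosomes. In a growing tooth germ these genes are used by epithelium and mesenchyme alike, so they mark no single cell type.

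The E50 arrays stood apart from the others. Signals from the 3' end of the EF1A control were 49.3 to 55.8 times those from its 5' end on the E50 arrays, 1.42 to 1.56 times on the E60 arrays and 1.35 to 1.47 times on the E70 arrays. For GAPDH the E50, E60 and E70 ratios were 29.7 to 42.2, 6.98 to 9.24 and 4.36 to 6.47. Every difference from E50 below was measured together with this difference in 3' bias, and stage and 3' bias cannot be told apart. The level taken as background, the 95th percentile of 23 background controls, was 248, 77.7 and 379 on the E50 arrays and 37.9 to 55.8 on the others. Above it were 54, 59 and 51 of the 59 genes on the E50 arrays and 58 on each E60 and E70 array, and the exception at E60 and E70 was NARS2. The measured markers of tooth epithelium (3 of 14 listed) and of tooth mesenchyme (3 of 11) were above background on all 9 arrays. No odontoblast marker of 2 measured was above background on all 3 arrays of any stage, nor was any ameloblast marker of 5 at E50 or E60. Of 12 measured skeletal muscle genes, 7 fell and 0 rose between E60 and E50, and their summed signal was 2150.3 to 2315 at E60, against 7124 to 9979 at E50, and 738 to 819.7 at E70. Of 6 macrophage markers, 3 fell and 1 rose, with summed signals of 1375 to 1573 at E60, against 3933 to 5330.4 at E50. Of 7 dental follicle genes, 3 rose and 1 fell, with summed signals of 80155 to 84895 at E60, against 45314 to 48424 at E50. At E70 their sum was below that of E50, at 27691 to 28855, and 3 fell and 0 rose between E70 and E50. Of 3 tooth mesenchyme genes, 2 fell between E60 and E50, with sums of 59562 to 63084 at E60, against 113665 to 125381 at E50. The 5 bone genes summed to 58022 to 62147 at E60 and 10269 to 11109 at E70, against 46399 to 56953 at E50. All 3 tooth epithelium genes rose between E70 and E50, with summed signals of 10812.5 to 11989 at E70, against 5277 to 5673 at E50. The part of these cells in the differences below was not tested, and in whole germs fewer cells of a type and less RNA per cell cannot be told apart.

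Between E60 and E50, the step in which the molar passes from cap to bell, 8 of the 59 genes rose, 6 fell and 45 did not pass the test (limma, Benjamini-Hochberg adjusted p under 0.05, here termed a call). The genes that rose were EIF3E, EIF4E, EIF4G1, EIF5B, EIF4A2, EIF3M, NARS and RARS, 6 initiation factors and 2 cytosolic ligases. Those that fell were EEF1D, EEF1AKMT1, EIF2B1, HARS and the mitochondrial ligases VARS2 and NARS2. Among all 23999 probe sets 18.5% were called, 7.85% higher and 10.6% lower, against 23.7% of the 59 genes. With all 6765 genes taken by 1 probe set each in the same way, 20.9% were called (7.2% higher and 13.7% lower), so the share among the 59 genes was close to that background. Another 10 genes had an unadjusted p under 0.05 without passing. The median change of the 59 genes was 0.13 on the log2 scale, against -0.18 over all probe sets, and 35 genes were above 0 and 24 below. All 3 arrays of E60 lay above all 3 of E50 for 22 genes and below them for 14, which was 61% of the genes, against 39.2% of all probe sets (17.5% above and 21.7% below) and 45.7% of the 6765 genes. The numbers depended on the arrays and on their scaling. With the E60 replicates left out singly 2, 2 and 3 genes were called, and without E70 replicate 2 or 3 it was 8 each. Median centring of the arrays, which added 0.77 to every change and moved the median change of all probe sets to 0.60, gave 26 rises and 1 fall, with 51 genes above 0 and 8 below.

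**Figure D1:**
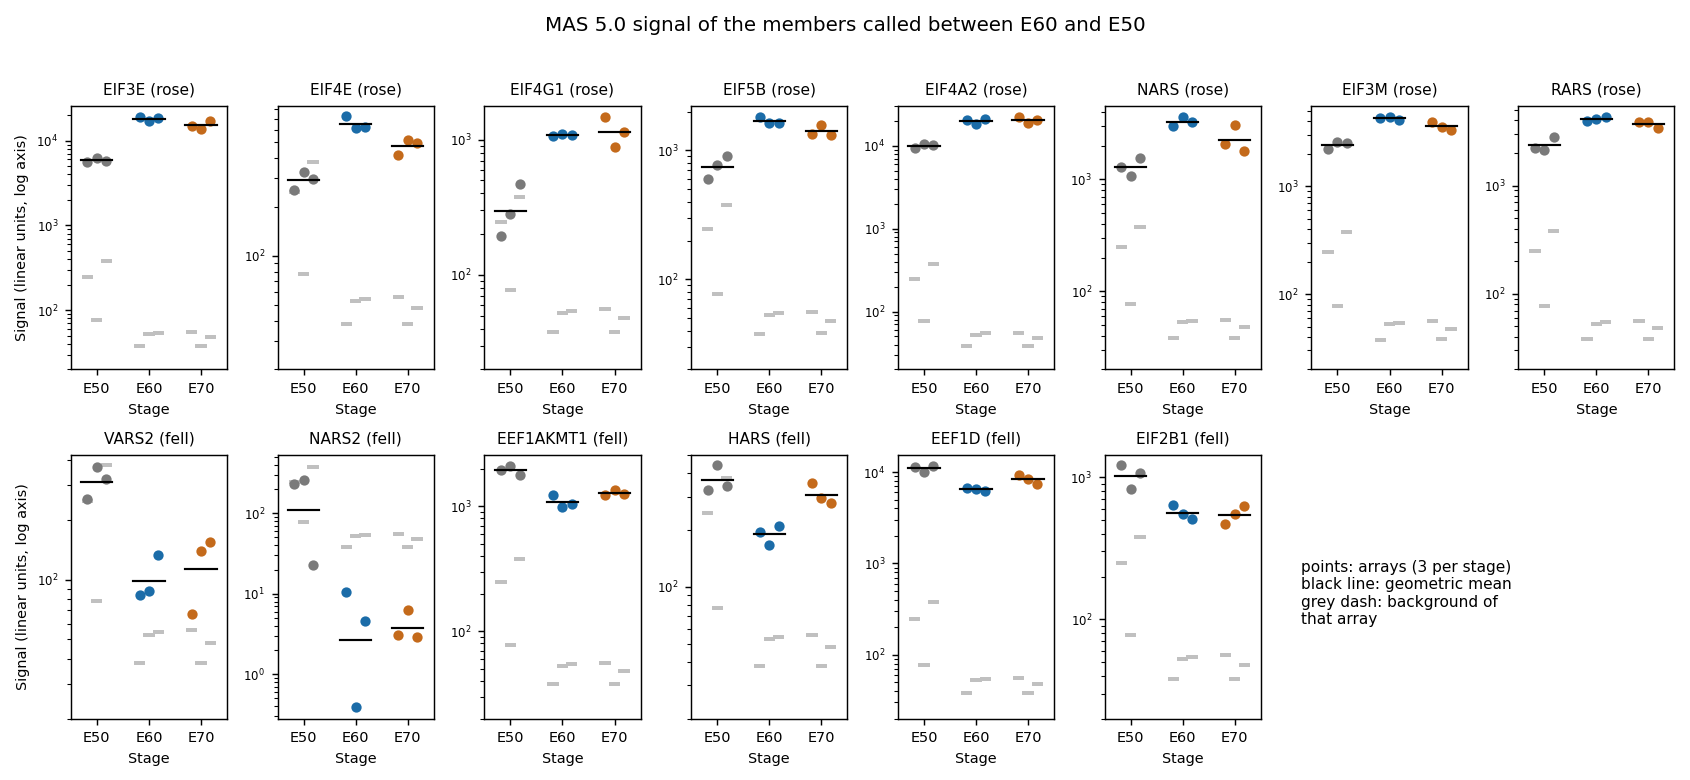
MAS 5.0 signal on a log axis of the 14 genes called between E60 and E50, by stage, with a point for each of the 3 arrays per stage, a black line at the geometric mean and a grey dash at the background of that array. For the 8 genes in the upper row every E60 array lies above every E50 array, for the 6 in the lower row every E60 array lies below, and NARS2 is under the background on all E60 and E70 arrays.

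The factors of eIF3, the scaffold on the small subunit, included the gene with the lowest adjusted p. EIF3E, a subunit at the edge of the complex that is also known as INT6, gave signals of 5573, 6247 and 5808 at E50, 18944, 16897 and 18419 at E60 and 15098, 13568 and 17026 at E70. No E50 array came near the other 6. It rose by 1.62 on the log2 scale between E60 and E50 (SE 0.20, n = 3 and 3, limma adjusted p = 0.00357), a 3.08-fold difference, and by 1.37 between E70 and E50 (SE 0.20, limma adjusted p = 0.00505). This call stood in each of 20 alternative analyses of either comparison, with a highest adjusted p of 0.0274 and 0.0441.

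EIF3M, another subunit, had 2216, 2578 and 2508 at E50, 4329, 4394 and 4100.2 at E60 and 3975, 3549 and 3353 at E70. The E50 arrays were again the lowest 3. It rose by 0.81 between E60 and E50 (SE 0.20, limma adjusted p = 0.0303), a call that was lost after quantile normalization (adjusted p = 0.0783) and without any 1 of the E60 arrays or E70 replicate 2 or 3 (adjusted p up to 0.106). Its other probe set changed by 0.83 with an adjusted p of 0.0552. EIF3L had 1944, 1916 and 2283 at E50, 2810.4, 3348 and 3484 at E60 and 3412, 4145 and 3137 at E70. It differed by 0.65 between E60 and E50 (adjusted p = 0.0842) and rose by 0.79 between E70 and E50 (SE 0.22, limma adjusted p = 0.0463). That call was lost after quantile normalization (adjusted p = 0.126), and only without E50 replicate 3 did it remain when an array was left out (adjusted p up to 0.139). The other 6 measured subunits (EIF3A, EIF3B, EIF3D, EIF3H, EIF3I and EIF3K) were not called in any comparison. Over the 9 subunits 2 rose and 0 fell between E60 and E50, with changes between -0.12 and 1.62 and a median of 0.19. The called share was 22.2%, against 20.9% of the 6765 genes (7.2% higher). Between E70 and E50 all 9 changes were above 0, with EIF3I slightly below after quantile normalization (-0.01).

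The eIF4 factors, which bind the cap and unwind the leader of the mRNA, held 3 of the 8 rises. EIF4G1, the main scaffold of the cap complex, had signals of 194, 284 and 472 at E50, 1064, 1107 and 1079 at E60 and 1482, 885 and 1147 at E70. The lowest array of the later stages was well above the highest of E50, where replicate 1 was below background. EIF4G1 rose by 1.87 between E60 and E50 (SE 0.36, n = 3 and 3, limma adjusted p = 0.0144) and by 1.95 between E70 and E50 (SE 0.36, limma adjusted p = 0.0115). The first call was lost without any 1 of the E60 arrays (adjusted p up to 0.0552). A dimmer probe set of the gene gave 57.9, 89.2 and 173 at E60, against 15.2, 38.7 and 32.5 at E50, all of which were under the background there, and its change was 1.85 (adjusted p = 0.0394). With the background standing for E50 the ratio was 0.50, so this probe set cannot show a rise.

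EIF4E, which binds the cap, had 256, 331 and 296 at E50, 726, 617 and 619 at E60 and 418, 516 and 497 at E70. Its 3 stages did not overlap, with E60 highest and E70 between, and E50 replicate 3 was below its background. It rose by 1.16 between E60 and E50 (SE 0.22, limma adjusted p = 0.0133), which was lost without E60 replicate 1 (adjusted p = 0.0621). Between E70 and E50 the change was 0.70 (adjusted p = 0.0646).

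EIF4A2, 1 of a pair of related helicases of the complex, had 9278, 10426 and 10340.2 at E50, 20434, 18176 and 20951 at E60 and 22079.5, 18772 and 20357 at E70. The E60 and E70 arrays overlapped and were all above E50. It rose by 0.99 between E60 and E50 (SE 0.20, limma adjusted p = 0.0166) and by 1.03 between E70 and E50 (SE 0.20, limma adjusted p = 0.0136). The first call was lost without any 1 of the E60 arrays (adjusted p up to 0.0713) and the second without E70 replicate 1 or 3 (up to 0.0530). EIF4A1, the other helicase of the pair, had 2772, 3301 and 2298 at E50, 4055, 3589 and 4434 at E60 and 4503, 3184 and 4033 at E70, with E60 above E50 on all arrays. Its changes were 0.54 between E60 and E50 (adjusted p = 0.172) and 0.49 between E70 and E50 (adjusted p = 0.212).

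Of the other eIF4 factors, EIF4B, EIF4G2, EIF4G3 and EIF4H changed by 0.35 to 0.74 between E60 and E50 and were not called. EIF4E2, a cap-binding relative of EIF4E that represses translation in other mammals, had 557, 489 and 557 at E60, against 703, 816 and 1156 at E50. Its change of -0.71 was not called (adjusted p = 0.101) and was 0.07 after median centring. Over the 9 eIF4 genes 3 rose and 0 fell (33.3% called, against 20.9% of the 6765 genes, 7.2% higher). As deposited 8 changes were above 0 and the median was 0.54, and under 3 other scalings 8 or 9 of the changes were above 0. EIF4EBP2, which sequesters EIF4E, changed by -0.19 (adjusted p = 0.635), and EIF4A3, a helicase of the exon junction complex, by 0.06 (adjusted p = 0.871).

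Among the factors that deliver the initiator tRNA and join the subunits, EIF5B had 596, 764 and 905 at E50, 1830.1, 1621 and 1633 at E60 and 1337, 1569.6 and 1327 at E70. All 9 arrays fell in the order E50, E70, E60 without overlap. It rose by 1.18 between E60 and E50 (SE 0.24, limma adjusted p = 0.0153) and by 0.92 between E70 and E50 (SE 0.24, limma adjusted p = 0.0342). Both calls were lost without any 1 of the E60 arrays (adjusted p up to 0.0676 and 0.107), the second also without any 1 of the E70 arrays and after quantile normalization (adjusted p = 0.0720). Its 2 dimmer probe sets changed by 2.76 and 1.62 between E60 and E50 without a call.

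EIF2S1, the alpha subunit of eIF2 on which the stress kinases act, had 2200.4, 1517 and 1605 at E50, 2332, 2300.0 and 2427 at E60 and 1375, 1949.7 and 1441 at E70. E60 was the highest stage on all arrays. Its change between E60 and E50 was 0.43 (SE 0.25, adjusted p = 0.271). The other genes grouped here (EIF1, EIF1B, EIF2A, EIF2D, EIF2S2 and EIF6), not all of which promote these steps, changed by -0.55 to 0.97. They were not called, EIF2A coming closest with an adjusted p of 0.0535. Of the 4 measured subunits of eIF2B, EIF2B1 had 1210.1, 823 and 1071 at E50, 635, 549 and 512 at E60 and 472, 549.7 and 629 at E70. The E50 arrays were the highest 3. EIF2B1 fell by 0.86 between E60 and E50 (SE 0.25, limma adjusted p = 0.0494) and by 0.90 between E70 and E50 (SE 0.25, limma adjusted p = 0.0421), and each call was lost without E50 replicate 1 or 3 or any 1 of the later arrays (adjusted p up to 0.152 and 0.129). After median centring the changes were -0.086 and -0.19, and neither passed (adjusted p = 0.843 and 0.637). Its other probe set changed by -0.20 and 0.38 in these comparisons, without a call. EIF2B2, EIF2B3 and EIF2B4 changed by -0.43 to 0.17. EIF2AK2 (PKR), the kinase of eIF2 that responds to double-stranded RNA, had 321, 484 and 666 at E50, 905, 774 and 791 at E60 and 998, 1019 and 1354 at E70, and its 3 stages did not overlap. It differed by 0.81 between E60 and E50 (adjusted p = 0.114) and rose by 1.24 between E70 and E50 (SE 0.31, limma adjusted p = 0.0317). The first became a call without E50 replicate 3 (adjusted p = 0.0318), and the second was lost without any 1 of the E60 or E70 arrays (adjusted p up to 0.109).

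**Figure D2:**
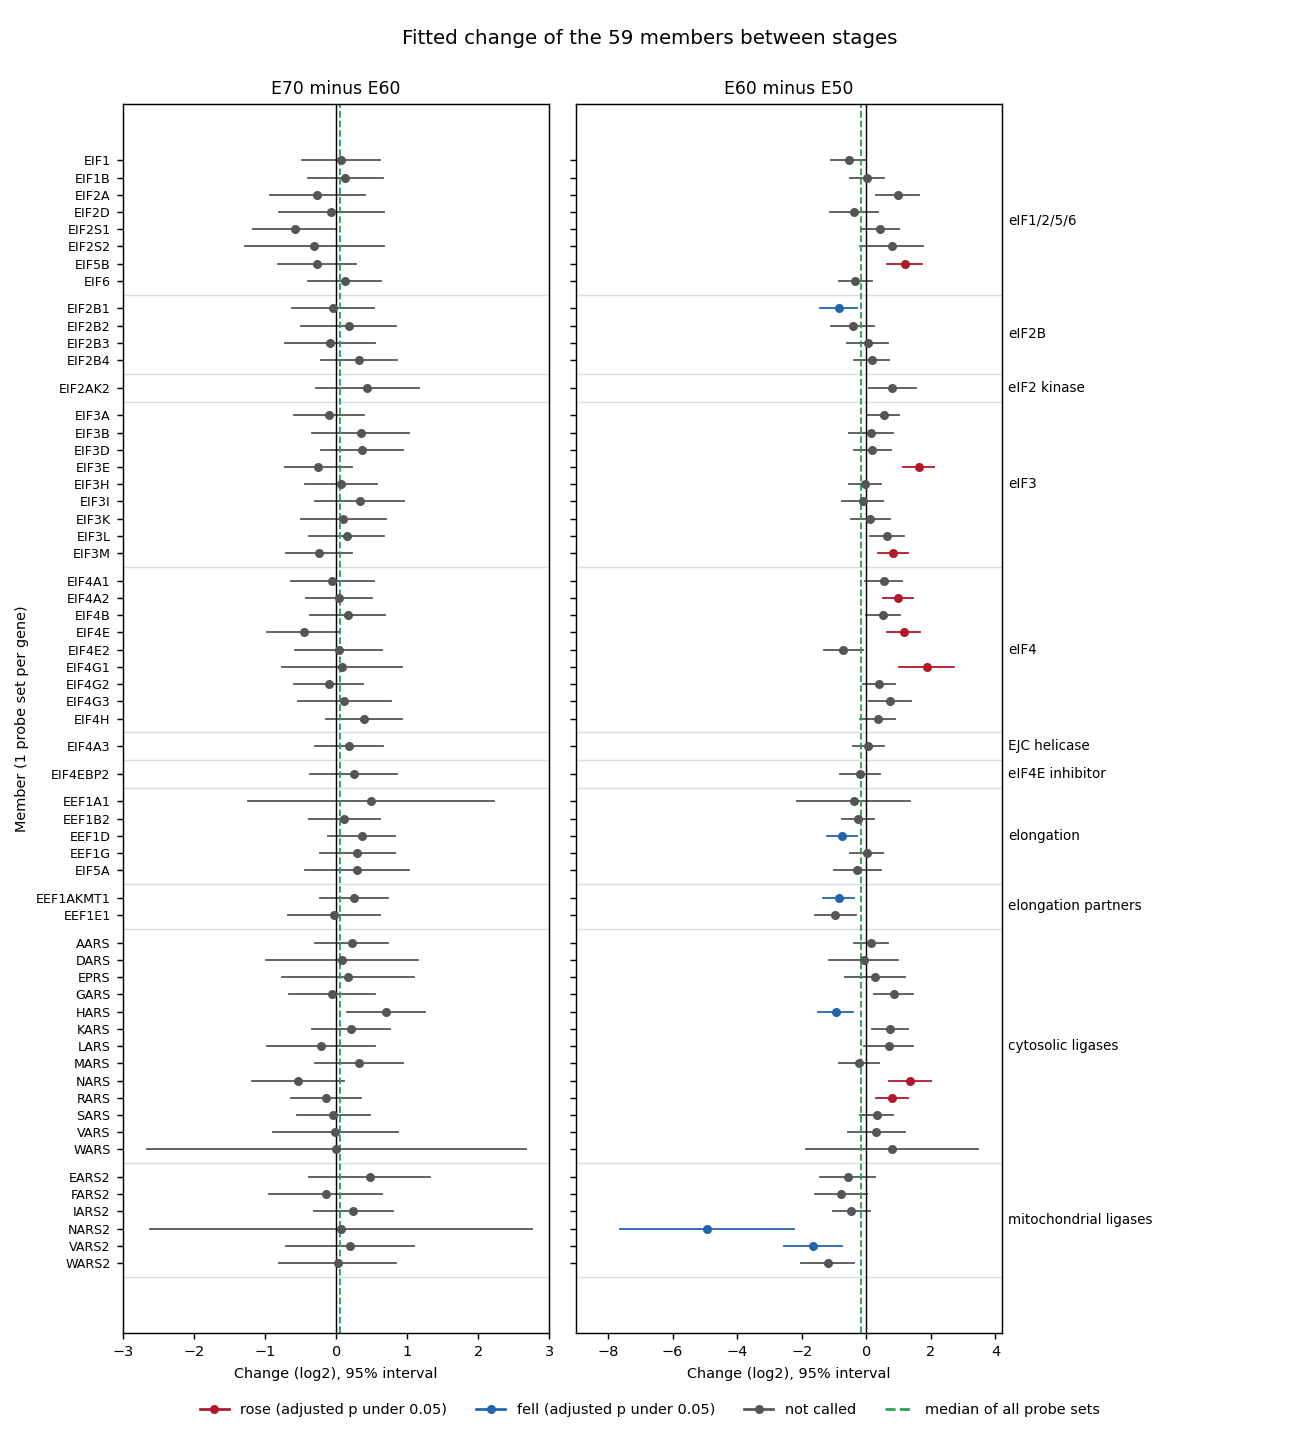
Fitted change of the 59 genes on the log2 scale with 95% confidence intervals, grouped by role, for E70 minus E60 (left) and E60 minus E50 (right), with calls in red and blue and the median of all probe sets as a dashed line. Between E60 and E50 the eIF4 genes lie mostly right of 0 and the 6 mitochondrial ligases left of it (4 of them after median centring), and between E70 and E60 no gene was called.

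No elongation factor rose between E60 and E50. EEF1D, which exchanges the nucleotide on eEF1A, had 11386, 9951 and 11629 at E50, 6769, 6518 and 6284 at E60 and 9225, 8423 and 7499 at E70. The 3 stages did not overlap, with E60 lowest. EEF1D fell by 0.75 between E60 and E50 (SE 0.20, limma adjusted p = 0.0419), but its change was 0.025 after median centring and the call was lost without E50 replicate 1 or any 1 of the later arrays (adjusted p up to 0.133). EEF1B2 and EEF1G, the other subunits of the same exchange complex, changed by -0.26 (adjusted p = 0.429) and 0.01 (adjusted p = 0.982).

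EEF1A1, the factor that carries the aminoacyl-tRNA, gave 1019, 1066 and 147 at E50, 428, 357 and 459.6 at E60 and 707, 402 and 684 at E70 on its probe set with the highest mean. E50 replicate 3 was below its background and lay under all other arrays, while the other E50 arrays lay over all others. The change between E60 and E50 was -0.40 (SE 0.74, adjusted p = 0.739). Without E50 replicate 3 it was -1.34 and passed (adjusted p = 0.0235), without E50 replicate 1 or 2 it was 0.060 and 0.091, and after median centring 0.38. Its other probe sets changed by 1.09 and 1.55, also without a call. EEF1A1 belongs to a family with near-identical copies in mammals, and the probe set's suffix marks it as shared among transcripts, so its signal may not belong to 1 gene.

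The array also carries 3 control probe sets named for EF1A, along 1 transcript. The 3' one had 83374 to 89516 at E60, against 263918 to 280189 at E50, the middle one 80329 to 96188 at E60, against 44150.4 to 51668 at E50, and the 5' one 53381 to 61232 at E60, against 5019 to 5392 at E50. The differences between E60 and E50 were -1.64, 0.92 and 3.49 on the log2 scale, so that the sign depended on the place along the transcript. Between E70 and E60 they were -0.11, -0.04 and -0.03.

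**Figure D3:**
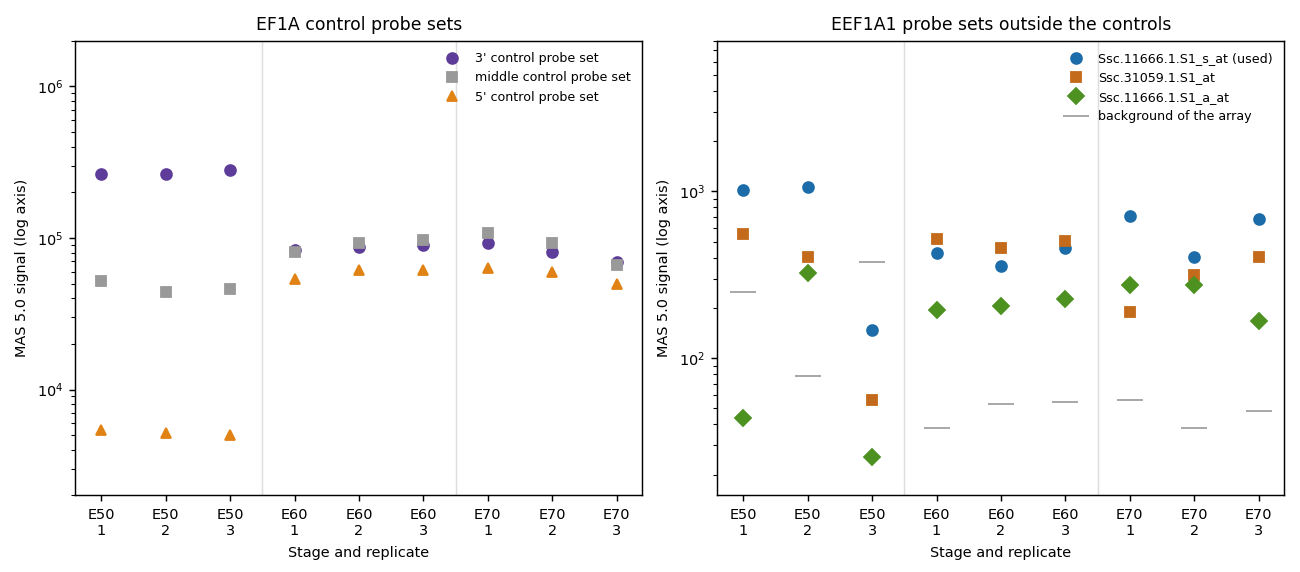
MAS 5.0 signal on log axes on each of the 9 arrays for the EF1A control probe sets (left) and for the 3 probe sets of EEF1A1 outside the controls (right), with grey dashes at the background of each array. The 3' control lies near 265543 and the 5' control near 5392 at E50, whereas all control signals lie between 49889.6 and 107821 at E60 and E70.

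EIF5A, which helps the ribosome past stretches that stall, had 3826, 3639.8 and 1986 at E50, 2341, 2475 and 2684 at E60 and 2469, 3541 and 3269 at E70, and the stages overlapped. Its change between E60 and E50 was -0.28 (adjusted p = 0.568) and 0.50 after median centring. Over EEF1A1, EEF1B2, EEF1D, EEF1G and EIF5A 0 rose and 1 fell (20% called, against 20.9% of the 6765 genes). There were 4 changes below 0 as deposited, 3 after quantile normalization and 0 after median centring.

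A pair of genes linked to elongation had lower signals at E60 than at E50 on every array. EEF1E1, a scaffold of the multi-synthetase complex also known as AIMP3, had 1784, 1767 and 1063 at E50, 861, 812 and 657 at E60 and 705, 753 and 817 at E70. Its change was -0.96 between E60 and E50 (SE 0.28, adjusted p = 0.0510), and it fell by 0.98 between E70 and E50 (SE 0.28, limma adjusted p = 0.0461), a call that remained only without E50 replicate 3 when an array was left out (adjusted p up to 0.129) and that was lost after median centring (-0.27, adjusted p = 0.610). Its other probe set changed by -0.98 between E60 and E50 and passed (adjusted p = 0.0198). EEF1AKMT1, a lysine methyltransferase that modifies eEF1A in human cells, had 1952, 2115 and 1771 at E50, 1227, 980.0 and 1038 at E60 and 1241, 1349.9 and 1255 at E70. It fell by 0.85 between E60 and E50 (SE 0.21, limma adjusted p = 0.0298), which was lost without any 1 of the E60 or E70 arrays (adjusted p up to 0.113) and after median centring (-0.075, adjusted p = 0.859). Its other probe set went the opposite way. It had 334, 302 and 351 at E60, against 69.9, 47.2 and 44.9 at E50, all under the background there (fitted change 2.63, limma adjusted p = 0.00152). With the background standing for E50 the ratio of geometric means was 1.69. The background of E50 replicate 3, at 379, was above each E60 signal.

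The cytosolic tRNA ligases were mostly higher at E60 than at E50, with 10 of 13 changes above 0 (12 after median centring) and a median of 0.33. The changes above 0 include those of WARS and VARS, each with 1 E50 array below background. Their median signals were lower at E60 than at E50 (389 against 593 and 358 against 388). Of the 13 ligases, 2 rose and 1 fell (23.1% called, against 20.9% of the 6765 genes), and none passed after quantile normalization. NARS, which charges the asparagine tRNA, had 1283, 1077 and 1561 at E50, 2981, 3619 and 3237 at E60 and 2085, 3044 and 1800.1 at E70. The E50 arrays were the lowest 3. NARS rose by 1.34 between E60 and E50 (SE 0.28, limma adjusted p = 0.0179), which was lost without any 1 of the E60 arrays (adjusted p up to 0.0713).

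RARS, the arginine ligase, had 2209.7, 2142 and 2782 at E50, 3902, 4102 and 4304 at E60 and 3867, 3885 and 3390.0 at E70. Its 3 stages did not overlap, with E50 lowest and E60 highest. RARS rose by 0.80 between E60 and E50 (SE 0.21, limma adjusted p = 0.0394), and when an array was left out the call remained only without E50 replicate 3 (adjusted p up to 0.128). KARS, the lysine ligase, which in mammals also supplies the mitochondrial form, had 4563, 5088 and 3799 at E50, 8031, 7183 and 7116 at E60 and 10250.4, 7129 and 8631 at E70. It differed by 0.74 between E60 and E50 (adjusted p = 0.0686) and rose by 0.95 between E70 and E50 (SE 0.24, limma adjusted p = 0.0315), which each E60 or E70 array left out singly removed (adjusted p up to 0.102).

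HARS, the histidine ligase, went lower. It had 327, 444 and 342 at E50, 196, 167 and 210.0 at E60 and 355, 295 and 280.0 at E70, so that the E60 arrays were below all others while E50 and E70 overlapped. HARS fell by 0.95 between E60 and E50 (SE 0.23, limma adjusted p = 0.0312), which was lost without any 1 of the E60 arrays or E70 replicate 2 or 3 (adjusted p up to 0.115). The change was -0.18 after median centring and -0.37 after quantile normalization, where it did not pass (adjusted p = 0.684 and 0.442). On E50 replicate 3 it was below background. Its other probe set was below background on every E60 and E50 array. The remaining cytosolic ligases (AARS, DARS, EPRS, GARS, LARS, MARS, SARS, VARS and WARS) were not called, with changes between -0.24 and 0.85. WARS, the tryptophan ligase, had 25.2, 593 and 624 at E50, and this spread (SD 2.65 on the log2 scale) was the widest of the 59 genes at that stage.

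All 6 mitochondrial ligases were lower at E60 than at E50 as deposited and in 2 of 3 other scalings, with a median of -0.99. For 5 of them (83.3%) the arrays did not overlap, against 39.2% of all probe sets (21.7% lower) and 45.7% of the 6765 genes. EARS2 was below background on E50 replicate 3. The median signal of all probe sets was also lower, at 164 to 173 on the E60 arrays, against 261 to 352 on the E50 arrays. After median centring 4 of the 6 were lower, and EARS2 and IARS2 were higher by 0.20 and 0.31. VARS2, the mitochondrial valine ligase, had 255, 369.5 and 320.0 at E50, 83.2, 87.6 and 132 at E60 and 67.3, 139 and 155 at E70. The E50 arrays were the highest 3, although replicate 3 of them was below its background. Replicate 1, at 255, was barely above its background of 248, so only E50 replicate 2 was clear of it and the size of the fall is uncertain. VARS2 fell by 1.65 between E60 and E50 (SE 0.38, limma adjusted p = 0.0253) and by 1.46 between E70 and E50 (SE 0.38, limma adjusted p = 0.0374). The first call was lost without E60 replicate 1 or 2 (adjusted p up to 0.0920) and the second without E50 replicate 2 or 3 or any 1 of the later arrays (up to 0.0853). The changes were -0.88 and -0.75 after median centring and -0.99 and -0.87 after quantile normalization, and none of these passed (adjusted p from 0.139 to 0.228).

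NARS2, the mitochondrial asparagine ligase, had 231, 257 and 22.9 at E50, 10.5, 0.396 and 4.52 at E60 and 3.07, 6.20 and 2.88 at E70. It was above background on E50 replicate 2 alone, so its fitted change of -4.93 (SE 1.15, limma adjusted p = 0.0256) is not a measured size, and the call was lost without E50 replicate 1 or 2 or E60 replicate 2 or 3 (adjusted p up to 0.0786). WARS2, the mitochondrial tryptophan ligase, had 274, 239 and 274 at E60, against 355, 724 and 832 at E50, and its change of -1.19 had an adjusted p of 0.0543. FARS2, EARS2 and IARS2 changed by -0.79, -0.58 and -0.46 without a call. Between E70 and E50 all 6 were again below 0, with a median of -1.05, and 2 fell (33.3% called, against 21.6% of the 6765 genes). After quantile normalization EARS2 was above 0 (0.29), and after median centring EARS2 and IARS2 were (0.60 and 0.49). The skeletal muscle genes moved in the same direction in both comparisons, as given above, and their part in the lower mitochondrial ligases was not tested.

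Where both a cytosolic and a mitochondrial ligase for 1 amino acid were measured, the values stand as follows. For asparagine, NARS rose by 1.34 and NARS2 had a change of -4.93 that is no measured size. For valine, VARS changed by 0.31 (adjusted p = 0.593) and VARS2 fell by 1.65, a size that is uncertain near the E50 background. VARS had 407, 388 and 157 at E50 and 345 to 387 at E60, and E50 replicate 3 was below its background. For tryptophan, the changes were 0.79 for WARS (adjusted p = 0.658) and -1.19 for WARS2 (adjusted p = 0.0543). WARS had 25.2 on E50 replicate 1, below its background, against 593 and 624 on the other E50 arrays and 310 to 401 at E60. Its other probe sets changed by -0.77 and -0.68 without a call. These pairs were set side by side after the values were seen, and the difference within a pair was not tested.

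Between E70 and E60, when the first molar goes on to the late bell stage, no gene of the 59 was called. Among all probe sets 0.421% were called (0.0833% higher and 0.338% lower), and 0.724% of the 6765 genes. At an unadjusted p under 0.05 there was 1 gene, HARS, which was 0.70 higher at E70 (95% confidence interval 0.15 to 1.25, limma adjusted p = 0.460). The next lowest p belonged to EIF2S1, which was -0.58 (interval -1.17 to 0.00), and EIF4E had -0.46 (interval -0.97 to 0.06). With the E60 and E70 arrays fitted alone, 0 genes were called, against 1.75% of all probe sets, and 4 had an unadjusted p under 0.05 (HARS, EIF2S1, EIF4E and EIF4H, adjusted p from 0.125 to 0.258). The median change was 0.08, against 0.05 over all probe sets. The arrays of E70 lay above those of E60 for 8 genes and below them for 5, which was 22% of the genes. This compares with 28.2% of all probe sets (15.7% above and 12.4% below) and 34.1% of the 6765 genes. All 5 elongation genes were above 0, by 0.12 to 0.49, and remained so under the other scalings, but none passed. For EIF3E, for example, the interval reached from -0.73 to 0.22 in the fit of all arrays and from -0.63 to 0.13 in the fit of E60 and E70 alone.

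Between E70 and E50 7 genes rose and 4 fell, which was 18.6% of the 59, against 18.8% of all probe sets (8.16% higher and 10.6% lower) and 21.6% of the 6765 genes. The rises were EIF3E, EIF4G1, EIF4A2, EIF5B, EIF3L, KARS and EIF2AK2, and the falls NARS2, VARS2, EIF2B1 and EEF1E1. This comparison shares its E50 arrays with that of E60. The median change was 0.29, against -0.11 over all probe sets, and 39 genes were above 0. The arrays did not overlap for 32 genes, 22 higher and 10 lower, or 54.2%, against 37.4% of all probe sets (17.5% higher and 19.9% lower) and 43.5% of the 6765 genes. With single arrays left out between 2 and 12 genes were called. The lowest counts, 2, 3 and 2, came without E70 replicate 1, 2 or 3, and without any 1 of the E60 arrays the count was 4. After median centring there were 26 rises and 1 fall, with 53 genes above 0. A test over the 3 stages at once (moderated F) called 8 genes (EIF3E, EIF4A2, EIF4E, EIF4G1, EIF5B, NARS, NARS2 and VARS2), against 17.7% of all probe sets. It called 14 without E50 replicate 3, 3, 3 and 2 without E60 replicate 1, 2 or 3, and 5, 4 and 2 without E70 replicate 1, 2 or 3.

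How well the probe sets of 1 gene go together limits these values. Of the 59 genes, 22 had several probe sets, with 31 besides those used. Between E60 and E50, 10 of the 31 had the opposite sign from the probe set used, in 8 genes, and in 1 gene, EEF1AKMT1, opposite signs were both called. Between E70 and E50 12 of the 31 had the opposite sign, in 9 genes, and none of them with opposite calls. Besides EEF1AKMT1, the opposite signs between E60 and E50 were in EEF1A1, EIF2A, EIF4EBP2, EIF5A, EPRS, HARS and WARS. EIF4G1 had both its probe sets called in the same direction, but the dimmer one was below background on all E50 arrays and shows no rise over that level. EIF3E, EIF4E, EIF4A2, NARS and RARS rest on 1 probe set each. DARS, whose probe set in use changed by 0.00 between E70 and E50, had another that fell by 1.29 (limma adjusted p = 0.0133).

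**Figure D4:**
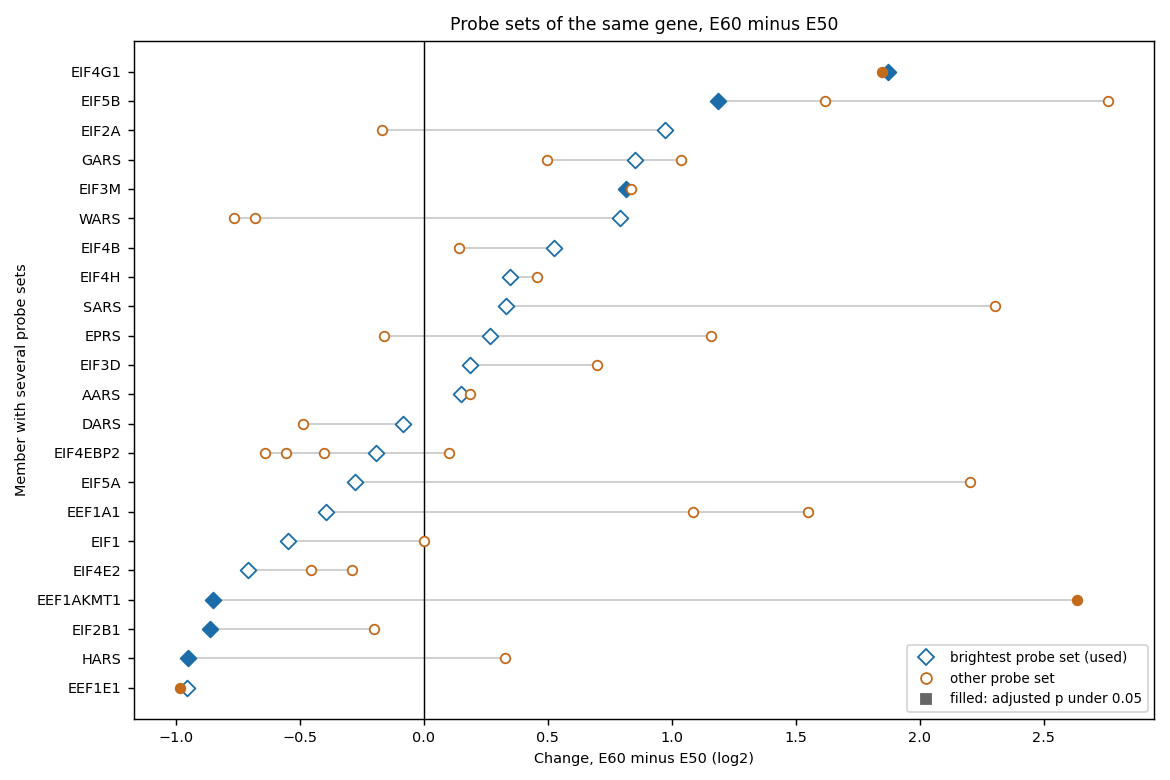
Fitted change between E60 and E50 on the log2 scale for the 22 genes with several probe sets, with the probe set used as a blue diamond, the others as orange circles and calls filled. Those of EIF4G1 (the dimmer below background on all E50 arrays), EIF3M and EEF1E1 lie close together, and those of EEF1AKMT1 lie at -0.85 and 2.63.

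The 59 genes, each taken by its brightest probe set, varied less between arrays of a stage than all probe sets. Their median SD on the log2 scale was 0.28 among the E50 arrays, 0.13 among the E60 arrays and 0.21 among the E70 arrays, against 1.03, 0.26 and 0.32 over all probe sets. Above background were 48.0% to 67.9% of all probe sets on the E50 arrays and 72.6% to 78.2% on the others. For the 59 genes this was 86.4% to 100% and 98.3%. The part of signal level in the difference in SD was not tested. Pearson's r between arrays of a stage was computed across the 59 genes, which are no independent replicates. It reached 0.866 to 0.933 for E50, 0.985 to 0.992 for E60 and 0.980 to 0.992 for E70. E50 was the stage with the widest spread for these genes too.

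Of 65 listed genes that regulate or complete translation, 31 were measured. Between E60 and E50 1 of them rose and 5 fell, between E70 and E60 0 were called, and between E70 and E50 1 rose and 4 fell. These were 19.4% and 16.1% of the 31, near the 18.5% and 18.8% of all probe sets. NCBP2, the cap-binding subunit of the nuclear cap complex, had 873, 1184 and 981 at E50, 3436, 3853 and 4025 at E60 and 2916, 3805 and 3183 at E70. The E50 arrays were the lowest 3, and NCBP2 rose by 1.91 between E60 and E50 (SE 0.23, limma adjusted p = 0.00318) and by 1.71 between E70 and E50 (SE 0.23, limma adjusted p = 0.00355). RHEB, the small GTPase that activates mTORC1, had 2611, 2049 and 1998 at E50, 1142, 1072 and 972 at E60 and 980.4, 785 and 811 at E70. It fell by 1.06 between E60 and E50 (SE 0.22, limma adjusted p = 0.0189) and by 1.37 between E70 and E50 (SE 0.22, limma adjusted p = 0.00728).

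The other falls were in genes with different roles. AKT1S1, a subunit that restrains mTORC1, fell by 1.18 between E60 and E50 (limma adjusted p = 0.0285), and the mitochondrial translation genes TSFM, an elongation factor, and MTRF1, a release factor, fell by 0.97 (0.0393) and 1.42 (0.0394). The other measured genes of their lists, TUFM, GFM1 and MTRF1L, went the opposite way, by 0.25, 3.25 and 1.42, without a call. GFM1 was above background on 1 E50 array, and TUFM and MTRF1L on 2. Of 9 measured genes of the integrated stress response, which eIF2 phosphorylation sets off, ATF3 fell by 1.63 between E60 and E50 (limma adjusted p = 0.0207). DDIT3 (CHOP), a transcription factor induced by such stress, had 279.7, 147 and 131 at E70, against 507, 615 and 392 at E50, and fell (limma adjusted p = 0.0269). PPP1R15A (GADD34), which directs the dephosphorylation of eIF2, fell by 2.31 between E70 and E50 (limma adjusted p = 0.0273). On E70 replicate 1 its signal of 47.4 was below background. MTRF1 fell by 1.40 between E70 and E50 (limma adjusted p = 0.0403). None of the 4 other subunits and scaffolds of the ligase complexes was called in any comparison. The calls of the listed genes, RHEB and NCBP2 included, are given as deposited and without their stability when an array was left out. Median centring adds 0.77 to every change between E60 and E50 and 0.71 between E70 and E50, which makes each of these falls smaller.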

How the data were processed

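Signals of 24123 probe sets on 9 arrays, 3 per stage, were used. Per the methods, the authors used GeneSpring 11.0 and its MAS 5.0 algorithm. The deposited values are intensity on a linear scale. The trimmed mean (2% off each end) was 500.1 on every array. Detection calls were not used here. The files give no coordinates or probe sequences, so none are printed. Precision is limited by the number of arrays.

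The log2 scale was used after raising lower values to a floor of 1. With 124 array controls set aside, 23999 probe sets were tested with limma 3.58.1 in R 4.3.3, in 1 fit of all arrays (lmFit and eBayes, constant prior, prior degrees of freedom 1.47) without covariates, with Benjamini-Hochberg adjustment over all of them. The study's methods used a random variance F test, for which limma's moderated F stood in. The fit was tested on simulated data with changes planted at E70 and read for E70 minus E60 alone. The comparisons with E50 were not covered by it. Symbols came from the platform table (10069 probe sets with 1 symbol, 198 with several, 13732 with none), and 58 of 59 genes were found in the RefSeq gene table by Entrez number. Python 3.11.15 with NumPy 2.4.6, pandas 2.3.3 and Matplotlib 3.10.9 drew the figures.

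The genes, gene lists and tests were chosen with earlier results of these data known. Named with full values were genes called in any comparison (up to 8 per direction, in order of adjusted p, unless below background in both stages), a defining factor of each role, and called genes of the pathway lists. Alternatives were another floor, a pseudocount, a filter on dim probe sets, 3 scalings, another prior, array weights, a replicate block, means over probe sets, 2 stages alone and each array left out.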

Additional observations from a re-analysis of the deposited data

How the results depend on the processing

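Between E70 and E60 0 genes were called under every alternative run. For the other comparisons the counts moved as follows, and the cause was not tested. Between E60 and E50 (14 genes) 27 were called after median centring (26 rises), 9 after quantile normalization, 26 with a trended and robust prior, 3 with array weights, 4 with both stages fitted alone, and 2 to 16 with single arrays left out. Between E70 and E50 (11 genes) there were 18 with a filter on dim probe sets, 27 after median centring (26 rises), 23 with the trended prior, 2 with array weights, 1 with both stages alone and 2 to 12 with single arrays left out. For the F test (8 genes) there were 13 with a floor of 16, 17 with the dim filter, 24 after median centring, 23 with the trended prior, 2 with array weights, 17 with means over probe sets and 2 to 14 with single arrays left out.

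The replicate number as a block gave 5, 4 and 1 genes for these comparisons. Same-numbered arrays did not deviate together (r from -0.02 to 0.03 over 9 pairs), and 1 of 9 arrays correlated best with its own number, so the numbers are not taken as pairs.

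Between E60 and E50 the sign turned for EEF1A1 after median centring (0.38), with means over probe sets (0.75) and without E50 replicate 1 (0.060) or 2 (0.091), and without E50 replicate 3 it was -1.34. It turned for EIF5A after median centring (0.50) and with means (0.96), for EEF1D after median centring (0.025) and for EEF1AKMT1 with means (0.89). These are the turned signs among the genes named with full values. Over all 59 genes the sign turned for 16 after median centring, 8 after quantile normalization and 0 after centring on the 75th percentile between E60 and E50, and for 14, 9 and 1 between E70 and E50. The median of the 59 genes relative to all probe sets was 0.31 between E60 and E50, 0.055 with the dim filter, 0.16 after quantile normalization and up to 0.39 with means over probe sets. For E70 and E50 it was 0.40, and 0.13 with the dim filter. Signal over background limits the E50 values most, since 47 of the 59 genes were above it on all 3 E50 arrays, against 58 at E60 and E70.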
